A study of Mus musculus with 4 samples.

Results

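The neural crest and Schwann cell genes followed here are Sox10, Foxd3, Erbb3 and Isl1. They were chosen by name, and all 4 were found among the 17568 genes of the expression table. RNA came from mouse forelimbs at E10.25 (31 to 34 somites), wild type and of the Swiss Webster strain, that were cultured with cyclopamine (2 libraries) or in control medium (2 libraries). Cyclopamine is a plant alkaloid that blocks Smoothened, the membrane protein through which Hedgehog signals enter the cell. Both groups carry the same labels for strain, genotype and stage. No label gives the cyclopamine dose, its vehicle, how long limbs were cultured or how many embryos went into a library. The libraries are called biological replicates in the study design, and nothing more is said of separate cultures or embryos, so p-values measure the spread between these libraries.

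The neural crest arises at the edge of the closing neural tube, and some of its cells follow growing nerves into the limb bud as Schwann cell precursors. Foxd3 encodes a forkhead transcription factor of early crest, and Sox10 encodes an HMG-box factor that is kept on in migrating crest and in the whole Schwann lineage. Erbb3 encodes the receptor through which crest and Schwann cells sense neuregulin from axons, and it is also made in epithelia and in muscle precursors. Isl1 encodes a LIM-homeodomain factor of sensory and motor neurons that is also active in mesenchyme of the early hindlimb field. Most cells of the limb bud at this stage are mesenchyme, and nerves are only beginning to enter it.

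The libraries held 12962633 and 12010965 reads in cyclopamine, against 9779589 and 13555492 in control medium. Values are CPM, that is, counts scaled to a common effective library size. Genes averaging at least 1 CPM over the 4 libraries were tested with limma (13568 genes), and an adjusted p under 0.05 was called. Of these, 38 genes were called (0.28%), with 6 higher (0.0442%) and 32 lower (0.236%) in cyclopamine. Gli1, the pathway's own target, measured 8.05 and 4.70 CPM in cyclopamine, against 56.2 and 56.7 CPM in controls, low in both treated libraries (log2 fold change -3.10, limma adjusted p = 4.32e-06). The tissue label was met by Prrx1, a limb mesenchyme gene, at 645.5 and 783 CPM in cyclopamine and 560 and 624 CPM in controls, and by the forelimb gene Tbx5 at 193 and 226 CPM in cyclopamine and 201 and 224 CPM in controls.

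None of the 4 genes was called, under limma or any other fit that took them in. Erbb3 had nearly the same mean in both groups, at 12.6 ± 0.521 CPM in cyclopamine and 12.5 ± 4.12 CPM in controls (SD, n = 2 each). Isl1 averaged 2.005 ± 0.716 CPM in cyclopamine and 2.88 ± 0.745 CPM in controls (SD, n = 2 each), with overlapping groups. Sox10 averaged 0.675 ± 0.496 CPM in cyclopamine and 1.27 ± 0.242 CPM in controls (SD, n = 2 each). Its mean of 0.974 CPM over all libraries lay just under the filter of 1 CPM. Foxd3 had 10 reads in the whole series. Of the 4, 2 were therefore tested (Erbb3 and Isl1), and 0 of these 2 were called.

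**Figure D1:**
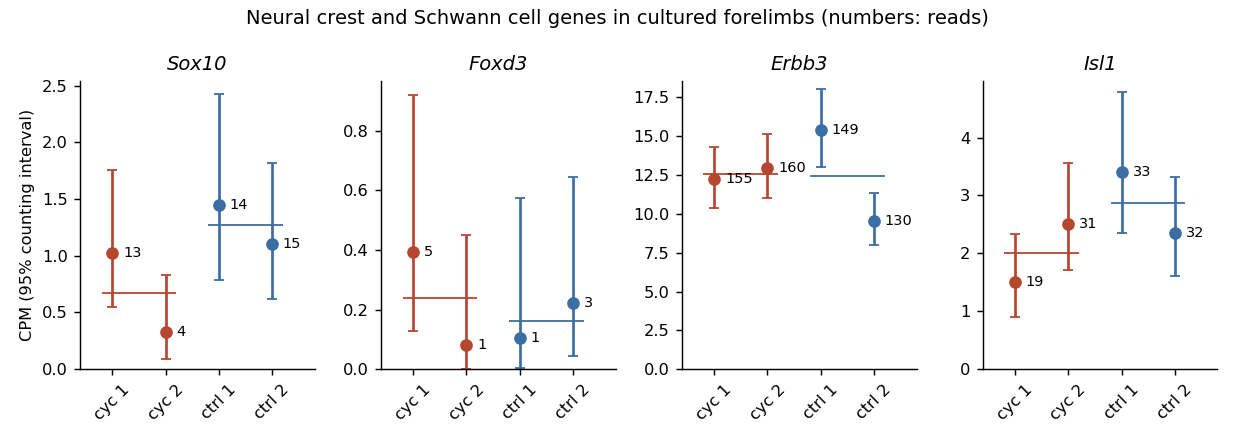
Level of each gene in CPM on the vertical axis, per library on the horizontal axis, with cyclopamine (cyc) left of control (ctrl). Points are libraries, bars are 95% intervals for counting error, short lines are group means and the numbers are reads. For Sox10 both cyclopamine points, at 1.03 and 0.324 CPM, lie below both control points, while the groups overlap for Foxd3, Erbb3 and Isl1.

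Per length of exon, the order of levels was Erbb3, Isl1, Sox10, Foxd3 in each of the 4 libraries. In CPM per kb of annotated exon, Erbb3 averaged 2.08 over all libraries, Isl1 0.617, Sox10 0.319 and Foxd3 0.0860. The libraries of Erbb3, at 1.59 to 2.56 CPM per kb, did not overlap those of any other member. Isl1 ran from 0.379 to 0.860 CPM per kb and Sox10 from 0.106 to 0.473, so these neighbours in the order overlapped between libraries. Sox10 and Foxd3 also overlapped, since Foxd3 ran from 0.0349 to 0.170 CPM per kb.

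**Figure D2:**
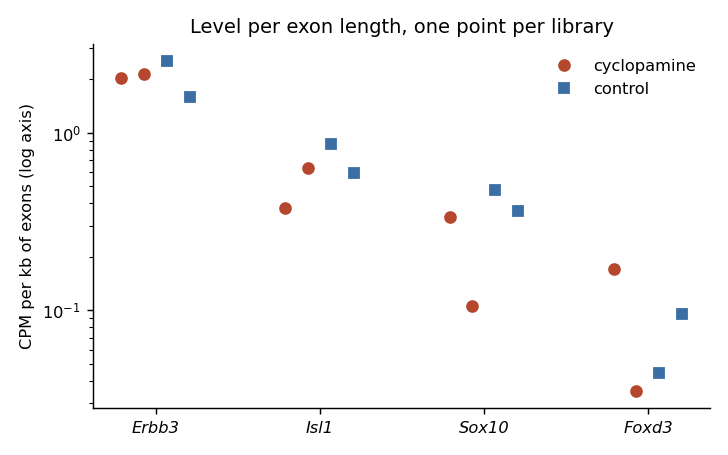
Level in CPM per kb of exon (vertical log axis) for each gene, with cyclopamine libraries as circles left of control libraries as squares. Erbb3 stands above the others in every library at 1.59 to 2.56 CPM per kb, and the ranges of Isl1, Sox10 and Foxd3 overlap from one to the next.

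Sox10 was the 1 member of the 4 whose groups did not overlap, on few reads. It lies on mm10 chromosome 15, from 79154908 to 79165240 on the minus strand, with no other gene's exons over its own in GENCODE vM21. The level was 1.03 and 0.324 CPM in cyclopamine, against 1.44 and 1.10 CPM in controls. These rest on 13 and 4 reads in cyclopamine and on 14 and 15 reads in controls. Both cyclopamine libraries lay below both controls, as they did for 15.7% of all genes in the table, and cyclopamine 1 was close to control 2. A further 17.6% of all genes had both cyclopamine libraries above both controls, so groups that do not overlap are common here. The pooled reads give a ratio of 0.546 of cyclopamine to control, with an exact 95% interval from 0.282 to 1.03 that covers counting error only. Fitted with limma without the filter, the log2 fold change on log2(CPM + 0.5) was -0.65 (95% interval -1.54 to 0.23, adjusted p = 0.942), in a fit that called 0.0114% of all genes. The edgeR quasi-likelihood test on all genes' reads gave -0.89 (adjusted p = 0.992) and called 0.0911%. In the authors' deposited table the log2 fold change of Sox10 is -0.89, with a p-value of 0.227 and a false discovery rate of 1; that table has 0.455% of its genes under 0.05. Without cyclopamine 2 the difference was -0.21, and without cyclopamine 1 it was -1.10, so its size depended on which cyclopamine library was kept. In whole-limb RNA, fewer cells of a type and less RNA per cell cannot be told apart.

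Foxd3 was at the limit of detection. Its gene, a single exon on mm10 chromosome 4 from 99656299 to 99658622 on the plus strand, also holds the annotated miRNA gene Gm23366, whose reads cannot be told apart from its own. It had 5 and 1 reads in cyclopamine, or 0.394 and 0.0810 CPM. In controls it had 1 and 3 reads, or 0.103 and 0.220 CPM. In 3 of the 4 libraries the count was at or under the floor of 3 reads, and the groups overlapped. The pooled ratio of 1.40 has an exact interval for counting error from 0.331 to 6.73, so a change of several-fold in either direction was not detectable at this depth. Limma without the filter gave a log2 fold change of 0.13 (95% interval -0.59 to 0.85, adjusted p = 0.998), and the authors' deposited table has 0.48 at a false discovery rate of 1.

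RefSeq promoter windows were at hand for Foxd3 and Isl1. The 250 bases before each start of the RefSeq windows are printed because Hedgehog signals reach genes through GLI factors that bind DNA. Both are 5′ to 3′ on the gene's own strand of GRCm38.p6, with capitals for a cyclic AMP response element (TGACGTCA), an E-box (CACGTG) or a CCAAT box, searched on both strands.
Foxd3, chr4:99656049-99656298, plus strand: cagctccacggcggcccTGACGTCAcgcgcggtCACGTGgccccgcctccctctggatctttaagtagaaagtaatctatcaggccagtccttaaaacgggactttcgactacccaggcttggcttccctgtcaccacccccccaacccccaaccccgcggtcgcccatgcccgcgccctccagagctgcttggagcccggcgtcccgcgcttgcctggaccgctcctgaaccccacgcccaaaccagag
Isl1, chr13:116309689-116309938, minus strand: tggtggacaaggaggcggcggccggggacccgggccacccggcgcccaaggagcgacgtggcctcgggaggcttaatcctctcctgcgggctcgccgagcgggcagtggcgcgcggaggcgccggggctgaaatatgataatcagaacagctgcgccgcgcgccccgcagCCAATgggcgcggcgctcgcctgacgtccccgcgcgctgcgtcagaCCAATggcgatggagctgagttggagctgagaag
Foxd3 held 1 cyclic AMP response element and 1 E-box, which do not overlap. Isl1 held 2 CCAAT boxes, and the last base of its window is also the first base of the gene in GENCODE vM21. Among 32851 windows of the same length in the RefSeq table, 1.55% held TGACGTCA, 6.02% held CACGTG and 33.8% held CCAAT. The GLI site GACCACCCA, present in 0.225% of windows, and the SOX core ACAAAG, present in 16.5%, were in neither, which says only that those letters are not in these windows. The homeodomain core TAAT, present in 54.9% of windows, occurred 1 time in Foxd3 and 2 times in Isl1 and is left in lower case. G and C made up 65.6% of the Foxd3 window and 71.2% of the Isl1 window, against a median of 52.4% over all windows.

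Erbb3 gave most of the reads of the 4 genes, 77.7% of 765, a share that is not scaled to length. The gene lies on mm10 chromosome 10, from 128567523 to 128589652 on the minus strand. A miRNA gene, Mir6917, lies within it and shares no exon bases with it. The level was 12.2 and 13.0 CPM in cyclopamine (155 and 160 reads), against 15.4 and 9.55 CPM in controls (149 and 130 reads). The cyclopamine libraries lay close together, between the controls, which stood apart with counting intervals from 13.0 to 18.1 CPM in control 1 and from 7.98 to 11.3 CPM in control 2. Limma gave a log2 fold change of 0.05 (SE 0.25, 95% interval -0.48 to 0.58, adjusted p = 0.9996). The interval leaves room for changes of that size either way and does not show equality. The direction turned with the control used, at 0.38 without control 1 and -0.28 without control 2. In the authors' deposited table the log2 fold change is 0.02 at a false discovery rate of 1.

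Of the neuregulin and ErbB genes, 16 of 17 were in the table and 11 were tested, of which 0 rose and 0 fell against the background of 0.28% called. Their median log2 fold change was -0.06, and that of all tested genes was 0.00. Erbb2, which encodes the kinase that Erbb3 protein pairs with, measured 76.2 and 83.7 CPM in cyclopamine, against 76.3 and 67.4 CPM in controls (log2 fold change 0.15, SE 0.15, limma adjusted p = 0.9996). Its groups overlapped by a narrow margin. Nrg1, which encodes the axonal ligand of Schwann cells, measured 1.10 and 0.810 CPM in cyclopamine and 1.34 and 1.47 CPM in controls (log2 fold change -0.39, SE 0.44, limma adjusted p = 0.9996). Nrg4 measured 1.03 and 0.972 CPM in cyclopamine and 1.86 and 1.98 CPM in controls (-0.69, SE 0.42, adjusted p = 0.969). For both ligands the cyclopamine libraries were the lower ones, on 14 and 10 reads for Nrg1 and 13 and 12 reads for Nrg4. Nrg2 went the other way, with 6 and 3 reads in cyclopamine and 0 and 0 in controls. Nrg3 overlapped, with 2 and 4 reads in cyclopamine and 2 and 5 in controls. Over the list, both cyclopamine libraries were below both controls for 4 of 16 genes and above them for 2, beside 15.7% and 17.6% of all genes. The growth factor gene Egf (-0.67, SE 0.39, limma adjusted p = 0.953) overlapped between groups, at 1.58 and 2.84 CPM in cyclopamine and 4.85 and 2.79 CPM in controls. Grb7, an adaptor gene of ErbB receptors, was at 9.07 and 8.91 CPM in cyclopamine and 8.56 and 6.02 CPM in controls (0.30, SE 0.26, limma adjusted p = 0.9996). Lrig1, a negative regulator of ErbB receptors, was at 33.8 and 38.2 CPM in cyclopamine and 39.4 and 43.0 CPM in controls (-0.19, SE 0.17, limma adjusted p = 0.9996).

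**Figure D3:**
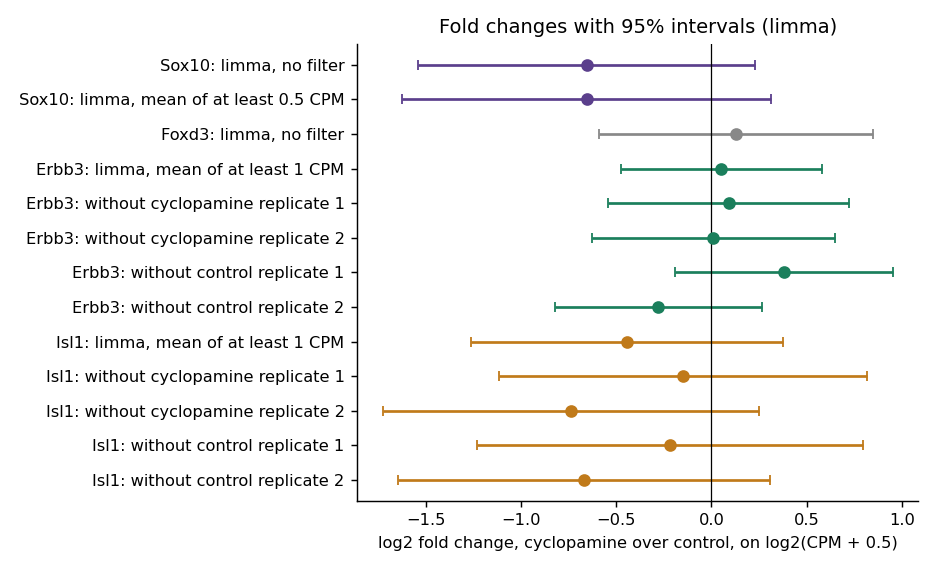
Log2 fold change of cyclopamine over control on the log2(CPM + 0.5) scale (horizontal axis) for each gene under the named limma setting, with 95% intervals as bars. Every interval drawn spans 0, and the point for Erbb3 moves from 0.38 without control replicate 1 to -0.28 without control replicate 2.

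Isl1 was lower on average in cyclopamine, though its groups overlapped. The gene lies on mm10 chromosome 13, from 116298281 to 116309689 on the minus strand, clear of other annotated exons. The level was 1.499 and 2.51 CPM in cyclopamine (19 and 31 reads), against 3.405 and 2.35 CPM in controls (33 and 32 reads). Cyclopamine 1 was the lowest library and control 1 the highest, while cyclopamine 2 lay above control 2. The pooled ratio was 0.717, with an exact interval for counting error from 0.485 to 1.05. Limma gave a log2 fold change of -0.44 (SE 0.39, 95% interval -1.26 to 0.38, adjusted p = 0.9996), and the authors' deposited table has -0.51 at a false discovery rate of 1. Without cyclopamine 1 the value was -0.15, and without cyclopamine 2 it was -0.74.

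Among 15 partners of Isl1 and genes of the limb field, 13 were tested, 0 rose and 0 fell, and the median log2 fold change was 0.05. Isl2, the close relative of Isl1, measured 1.89 and 2.27 CPM in cyclopamine and 3.10 and 1.91 CPM in controls (-0.19, SE 0.38, limma adjusted p = 0.9996). Ldb1, which encodes the cofactor that LIM-homeodomain proteins bind, was at 259.6 and 292.3 CPM in cyclopamine and 270.3 and 260.3 CPM in controls. Hand2, which acts with Isl1 upstream of Shh in the mouse hindlimb and marks posterior forelimb mesenchyme, measured 69.3 and 59.96 CPM in cyclopamine, against 90.1 and 96.0 CPM in controls (-0.53, SE 0.15, limma adjusted p = 0.332). Its groups did not overlap, but it did not pass. Shh itself, the posterior signal of the limb bud, measured 6.07 and 8.02 CPM in cyclopamine and 7.84 and 14.5 CPM in controls (-0.58, SE 0.29, limma adjusted p = 0.885), and its groups overlapped. The LIM-homeodomain gene Lhx2 (0.29, SE 0.15, limma adjusted p = 0.918) and the cofactor gene Ldb2 (0.27, SE 0.16, limma adjusted p = 0.964) did not pass. Neither hindlimb gene, Tbx4 or Pitx1, was called. Tbx4 measured 8.13 and 8.59 CPM in cyclopamine and 9.90 and 5.51 CPM in controls. Pitx1 had 20 and 29 reads in cyclopamine and 21 and 3 reads in controls, so control 2 stood apart. Lhx3, whose protein works with that of Isl1 in motor neurons, had 0 reads in both cyclopamine libraries and 2 and 4 reads in controls. Mnx1, another motor neuron gene, had 0 and 1 reads in cyclopamine and 0 and 3 in controls, and its groups overlapped. Of the same motor neuron list, Prph went the other way, with 8 and 13 reads in cyclopamine and 2 and 4 in controls. Slc5a7 overlapped, with 5 and 7 reads in cyclopamine and 2 and 10 in controls.

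The summed level of the 4 genes, a description with no test, was 15.2 and 15.9 CPM in cyclopamine and 20.3 and 13.2 CPM in controls. The sum follows Erbb3 and again places both cyclopamine libraries between the controls. Its exact counting intervals were 13.1 to 17.5 and 13.7 to 18.3 CPM in cyclopamine, against 17.6 to 23.4 and 11.4 to 15.3 CPM in controls. Within the sum, Sox10 gave 6.77% and 2.04% of the reads in cyclopamine, against 7.11% and 8.33% in controls, and Isl1 gave 9.90% and 15.8% in cyclopamine, against 16.8% and 17.8% in controls. Erbb3 gave 80.7% and 81.6% in cyclopamine and 75.6% and 72.2% in controls. Foxd3 gave 2.60% and 0.510% in cyclopamine and 0.508% and 1.67% in controls.

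Of 23 neural crest factors, 21 were tested, 0 rose and 1 fell, with a median log2 fold change of -0.06. The fall was that of Zic1, a zinc finger gene shared by crest and dorsal neural tube, which had 0 and 25 reads in cyclopamine and 63 and 216 in controls (log2 fold change -3.25, SE 0.58, limma adjusted p = 0.0290). Its call ended without control 2 (limma adjusted p = 0.140) and in edgeR (adjusted p = 0.0746), and DESeq2 gave an adjusted p of 0.9999. Ret, a receptor gene of enteric crest and of sensory and motor neurons, measured 1.34 and 1.54 CPM in cyclopamine, against 4.85 and 2.64 CPM in controls (-1.08, SE 0.39, adjusted p = 0.612). Snai2, which takes part in the exit of crest cells from the epithelium and is also made in limb mesenchyme, measured 79.7 and 95.5 CPM in cyclopamine and 72.9 and 56.3 CPM in controls (0.44, SE 0.17, adjusted p = 0.661). Tfap2a, a factor of crest and ectoderm, measured 38.0 and 46.8 CPM in cyclopamine and 56.6 and 58.0 CPM in controls (-0.44, SE 0.16, limma adjusted p = 0.654). Msx2 (0.52, SE 0.20, adjusted p = 0.683), a factor shared by crest and distal limb, did not pass either. Over the whole list, both cyclopamine libraries were below both controls for 7 of 23 genes and above them for 6, beside 15.7% and 17.6% of all genes.

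The list of the Schwann lineage had 20 genes, of which 12 were tested, 0 rose and 1 fell, with a median log2 fold change of -0.08. The fall was Pou3f2, a POU factor gene of Schwann cells and neural progenitors, with 12 and 2 reads in cyclopamine and 31 and 94 in controls (-2.42, SE 0.48, limma adjusted p = 0.0464). It lost its call without control 2 (limma adjusted p = 0.434) and in edgeR (adjusted p = 0.0521), and kept it in DESeq2 (adjusted p = 0.00575). Fabp7 and Sox2, both made in glial precursors and in neural tube, did not pass in limma. Fabp7 measured 0.237 and 0.486 CPM in cyclopamine, against 1.96 and 6.98 CPM in controls (-2.33, SE 0.51, limma adjusted p = 0.0902). It passed in edgeR (adjusted p = 0.0377), which called 0.295% of the same genes, and in DESeq2 (adjusted p = 0.0045). In edgeR without a filter it did not pass (adjusted p = 0.0972). Sox2 had 10 and 0 reads in cyclopamine and 26 and 73 in controls (-2.43, SE 0.51, limma adjusted p = 0.0724). Control 2 held the most of each. Itga4, an integrin gene of crest and mesenchyme, measured 21.9 and 29.3 CPM in cyclopamine and 16.4 and 18.1 CPM in controls (0.54, SE 0.20, limma adjusted p = 0.654). Ncam1, an adhesion gene of neurons, glia and mesenchyme, measured 45.8 and 69.8 CPM in cyclopamine and 75.5 and 81.1 CPM in controls (-0.47, SE 0.18, limma adjusted p = 0.710). Over the Schwann list, both cyclopamine libraries were below both controls for 5 of 20 genes and above them for 3, beside 15.7% and 17.6% of all genes.

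Some genes closer to the Schwann lineage were also measured. Ngfr, a neurotrophin receptor gene of crest and Schwann cells that limb mesenchyme also expresses, measured 15.9 and 13.5 CPM in cyclopamine and 16.5 and 15.7 CPM in controls (-0.13, SE 0.21, limma adjusted p = 0.9996), and its groups overlapped. Cdh19, a cadherin of Schwann cell precursors, had 2 and 1 reads in cyclopamine and 3 and 2 in controls. Ednrb, an endothelin receptor gene of crest, measured 13.9 and 16.4 CPM in cyclopamine and 20.9 and 17.4 CPM in controls (-0.33, SE 0.21, adjusted p = 0.976). With Foxd3 and Cdh19 at a few reads, the label of crest and Schwann cells rests here on low counts.

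**Figure D4:**
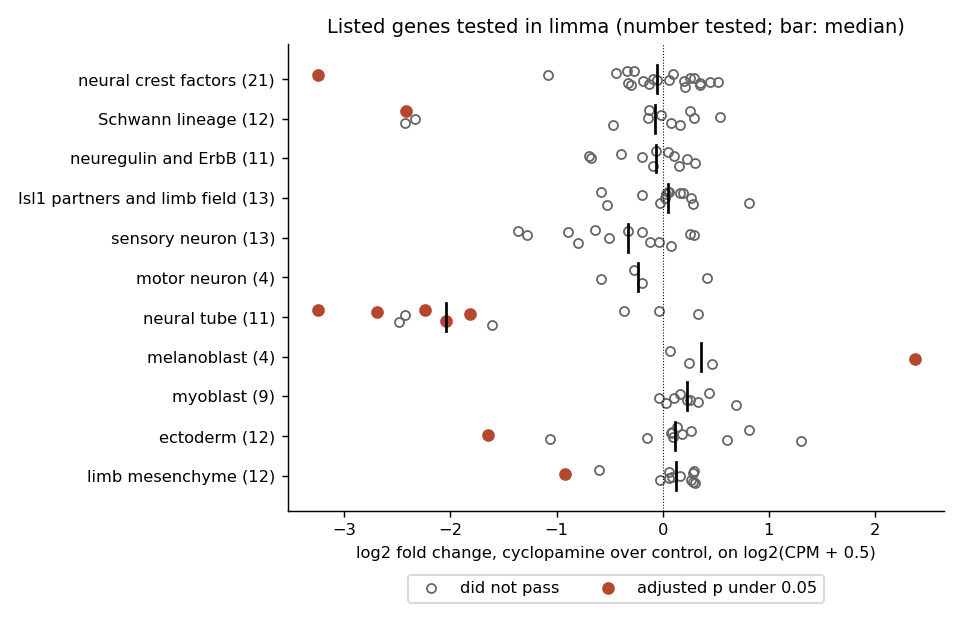
Log2 fold change of cyclopamine over control on the log2(CPM + 0.5) scale (horizontal axis) for the tested genes of each list, with the number tested in brackets. Filled points passed an adjusted p of 0.05, open points did not, and bars are medians. The neural tube list has its median at -2.04, and the neural crest and Schwann lists have theirs at -0.06 and -0.08.

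Other cells that a dissected forelimb may hold were followed by lists of markers, and some genes stand in more than one list. Zic1 is in the neural crest and neural tube lists, and Sox2 is in the Schwann and neural tube lists. Of 20 neural tube genes, 19 were in the table, 11 were tested, 5 fell and 0 rose, with a median log2 fold change of -2.04. The falls were Zic1, the neuronal genes Tubb3, Stmn2 and Elavl3, and Ina. Tubb3 measured 3.47 and 5.83 CPM in cyclopamine, against 14.4 and 20.4 CPM in controls (-1.82, SE 0.28, limma adjusted p = 0.0112). Stmn2 measured 2.21 and 1.22 CPM in cyclopamine, against 8.25 and 8.45 CPM in controls. The summed CPM of the list was 248 and 216 in cyclopamine and 298.5 and 313.5 in controls. Most of that sum came from Zic2 and Nes, which limb mesenchyme also expresses. Ina, Olig3 and Neurod4 had 0 reads in both cyclopamine libraries. Without control 2, 8 of the genes were tested and 2 fell, Tubb3 and Stmn2. In that fit Zic1 and Elavl3 (limma adjusted p = 0.208) did not pass and Ina was under the filter. Ina also lost its call with plain library sizes (limma adjusted p = 0.0776) and with a pseudocount of 1 (limma adjusted p = 0.0628). Both cyclopamine libraries were below both controls for 14 of the 19 genes and above them for 0, beside 15.7% and 17.6% of all genes. Sox10 lay below on few reads, and the part of neural tube cells in the values of Sox10 and Isl1 was not tested.

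Sensory neuron genes, many of which mark the same ganglia as Isl1, had 20 of 21 in the table and 13 tested, of which 0 rose and 0 fell, with a median of -0.33. Pou4f1, a factor of sensory neurons that works beside Isl1 in mouse ganglia, measured 1.74 and 0.648 CPM in cyclopamine, against 4.23 and 3.09 CPM in controls (-1.36, SE 0.42, limma adjusted p = 0.406). Elavl4, a neuronal RNA-binding protein gene, measured 3.23 and 3.48 CPM in cyclopamine, against 6.91 and 11.2 CPM in controls (-1.27, SE 0.30, limma adjusted p = 0.161). Nefl, a neurofilament gene, was at 3.63 and 3.65 CPM in cyclopamine and 7.12 and 7.2 CPM in controls (-0.89, SE 0.29, adjusted p = 0.464). Neurog1 and Neurog2, which start sensory neurogenesis, had 0 reads in both cyclopamine libraries, against 6 and 10 reads for Neurog1 and 4 and 19 reads for Neurog2 in controls. Prph, on similar counts, went the other way, with 8 and 13 reads in cyclopamine and 2 and 4 in controls. Avil had 7 and 22 reads in cyclopamine and 3 and 11 in controls, and its groups overlapped. Both cyclopamine libraries were below both controls for 10 of the 20 genes and above them for 3, beside 15.7% and 17.6% of all genes. The summed CPM was 174.9 and 173.5 in cyclopamine and 186 and 191 in controls, and it was led by genes such as Six4 that other limb cells share.

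The remaining lists held few calls. Of 14 motor neuron genes 12 were in the table and 4 were tested, with 0 called and a median of -0.23. Both cyclopamine libraries were below both controls for 2 of the 12 motor neuron genes and above them for 2, beside 15.7% and 17.6% of all genes. The summed CPM of the motor neuron list, 168 and 177 in cyclopamine and 153 and 132 in controls, came mostly from Foxp1. Among melanoblast genes, another crest lineage, 7 of 9 were in the table and 4 were tested, with a median of 0.36. Both cyclopamine libraries were below both controls for 0 of the 7 genes and above them for 4, beside 15.7% and 17.6% of all genes. Of the tested genes 1 rose, Gpnmb, a gene of pigment cells and of macrophages (2.37, SE 0.43, limma adjusted p = 0.0299). Gpnmb passed in edgeR on the genes tested in limma (adjusted p = 0.03755) but not in edgeR without a filter (adjusted p = 0.0857). It also did not pass in limma with plain library sizes (adjusted p = 0.0638). Of the pigment genes in the list, Dct and Slc45a2 stood at 7 reads or fewer in every library. Tyr, the gene of the first enzyme of melanin synthesis, had 82 and 39 reads in cyclopamine and 42 and 44 in controls. Mitf, the gene of a pigment cell factor that other cells also make, had 59 and 59 reads in cyclopamine and 30 and 47 in controls, and neither was called. The summed CPM of the list was 64.2 and 58.9 in cyclopamine and 51.8 and 53.9 in controls. It came mostly from Kit, at 47.1 and 45.7 CPM in cyclopamine and 42.92 and 45.55 CPM in controls. Gpnmb gave 4.97 and 4.29 CPM in cyclopamine, against 0.206 and 0.882 CPM in controls. Myoblast genes, whose cells can also express Erbb3, had 0 of 9 tested genes called and a median of 0.23. Their summed CPM was 132.5 and 154.7 in cyclopamine and 107.9 and 154.3 in controls. Ectoderm genes, from the other limb tissue that can express Erbb3, had 12 tested, 1 that fell (Fgf8, -1.64, SE 0.20, adjusted p = 0.000973) and 0 that rose, with a median of 0.12. Their sum was 442 and 329 CPM in cyclopamine and 434 and 337 CPM in controls. Among 12 limb mesenchyme genes 1 fell, Hoxd11 (-0.92, SE 0.18, limma adjusted p = 0.0454), 0 rose and the median was 0.12. Their sum was 2386 and 2711 CPM in cyclopamine and 2358 and 2433 CPM in controls. Both cyclopamine libraries were below both controls for 2 of these 12 genes and above them for 6, beside 15.7% and 17.6% of all genes. Hoxd11 lost its call in edgeR (adjusted p = 0.0695) and kept it in DESeq2 (adjusted p = 0.00446). In limma it also lost the call with plain library sizes (adjusted p = 0.0733) and a filter of 0.5 CPM (adjusted p = 0.0517). Its log2 fold change was -0.79 without control 1 and -0.65 without cyclopamine 2, and it was not called in those fits. It was -1.06 without control 2 and -1.20 without cyclopamine 1. Erbb3 was highest in control 1 and lowest in control 2, and the share of any of these listed cell types in its level was not tested.

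The genes nearest in pattern were found as those with the smallest root mean square difference of centred log2(CPM + 0.5) over the 4 libraries. For Erbb3 they were Zfp366 (0.0111), Npm3-ps1 (0.0139) and Mafg (0.0192), and 189 tested genes lay within 0.1. For Isl1 they were Nfam1 (0.0297), Podxl2 (0.0478) and Slc37a1 (0.0510), and 24 lay within 0.1. With 4 libraries such likeness is easily met, and it is given as a description.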

How the data were processed

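RNA was sequenced on SOLiD from 4 libraries of cultured forelimbs. Per the submitters' processing notes, the tools were HTSeq 0.5.4p5, TopHat2 2.0.9, edgeR 3.4.2, SAMtools and Bowtie, and the build was mm10. What each did, the annotation, and the handling of strand and multi-mapped reads are not stated there. The deposited signal is CPM of an effective library size, and 100% of values in each library were whole multiples of one read (within 0.01 of a read), so reads could be recovered (9779589 to 13555492 per library). The authors' deposited comparison holds p-values, false discovery rates, log2 fold changes and mean log2 CPM, the test not stated.

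Genes averaging at least 1 CPM were tested with limma 3.58.1 (R 4.3.3) on log2(CPM + 0.5), the variance trended on intensity, without covariates, two-sided and Benjamini-Hochberg adjusted over 13568 genes. The log2 scale with its pseudocount understates changes of low genes. With 2 libraries per group an exact permutation cannot go below p = 0.333. Alternatives were edgeR 4.0.16 and DESeq2 1.42.0 on recovered reads, other scalings, pseudocounts (0.1 and 1) and filters (none and 0.5 CPM), no trend, a replicate block and leaving out each library. On recovered reads edgeR called 40 genes. The limma and edgeR steps were tested on simulated data. Intervals for counts are exact (95%) and cover counting error only, as reads lacking molecular identifiers may be copies. The members and lists were chosen with earlier results of these data known, and the promoter motifs with both sequences in view. Genes named are the members, the Hedgehog targets, and of each list the called genes (up to 6 per direction), up to 4 more with the smallest p and, for marker lists, the 3 of highest level, with 3 nearest patterns per tested member. Not every gene so chosen is described, and some are not reported here. Erbb2, Nrg1, Ldb1, Ngfr, Ednrb, Tbx4, Pitx1, Cdh19 and genes named for 0 or few reads were added after their values were seen. So were Nrg2, Nrg3, Prph, Avil and Slc5a7. Exon lengths and coordinates are from GENCODE vM21 (GRCm38) and promoters from RefSeq on GRCm38.p6.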

Additional observations from a re-analysis of the deposited data

How the results depend on the processing

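No member was called under any setting run, in limma, edgeR or DESeq2. Erbb3 ran from -0.28 to 0.38 on the log2 scale over the fits without one library each, with both signs. Foxd3, under the filter in each of those fits, had differences of mean log2(CPM + 0.5) from -0.18 to 0.44, with no test, and was 0.48 in edgeR's quasi-likelihood test without a filter, an alternative chosen after seeing the data. Sox10, of these fits tested only in the one without cyclopamine 2, had differences from -1.10 to -0.21, and Isl1 ran from -0.74 to -0.15. The log2 ratio of the summed level was -0.113 and ran from -0.39 to 0.23, the last without control 1. The count of 38 called genes became 20 with plain library sizes, 2 without the filter, 0 in limma when the variance was not trended (837 with p under 0.05 before adjustment), 16 in edgeR without a filter and 43 to 122 over the fits without one library each. Of the listed genes other than members and Hedgehog targets, 9 were called, against 4 with plain library sizes, 0 without the filter, 0 without a trend, 4 in edgeR without a filter and 5 to 13 over the leave-one-out fits. The cause of these shifts was not tested. With the replicate number as a block, limma called 351 genes, 23 of the listed genes and 0 members. The labels tie that number to no litter or day, and same-numbered libraries' deviations correlated at 0.274 across genes, with 2 pairs. Without one library each, signs turned for Onecut2 (-1.26 to 0.088), Isl2 (-0.48 to 0.095), Tyr (-0.21 to 0.71), Met (-0.13 to 0.79), Pax3 (-0.033 to 0.55), Tbx4 (-0.23 to 0.56) and Pitx1 (-0.13 to 1.76), none of them called. Depth limits Foxd3 most, with 1 to 5 reads per library, and Sox10 next, with 4 to 15.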
